A study of Mus musculus with 6 samples.

Results

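Galectins are small proteins that bind beta-galactoside sugars on cell surface glycoproteins. The galectin genes described here were Lgals1, Lgals3, Lgals4, Lgals8, and Lgals9, together with Lgals3bp, which encodes a secreted glycoprotein that galectins bind. They were taken by symbol and make up 6 of the 57126 genes in the count table. RNA was sequenced on day 6 of expansion from CD8+ T cells of OT-I mice, whose transgenic T cell receptor recognizes an ovalbumin peptide. In both groups the cells were stimulated with nano-aAPCs, iron oxide nanoparticles that carry the peptide on MHC class I and an antibody to CD28. TEff cells (n = 3) were expanded in IL-2, and TRM-like cells (n = 3) in IL-2 with IL-15 and TGF-β, a culture meant to resemble tissue-resident memory. The strain background and age of the mice are not given in the sources used here, and nothing says that the replicates came from separate animals or cultures, so the p-values measure only the spread between these samples, which may be technical.

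Galectins act both inside the cell and, once released, outside it. Outside, they crosslink glycoproteins that carry N-acetyllactosamine, the galactose-containing disaccharide at the ends of complex N-glycans and of some O-glycans, and in T cells this crosslinking is known to alter receptor signalling, adhesion, and survival. Inside, galectin-3, galectin-8, and galectin-9 collect on damaged endosomes and lysosomes, where sugars that normally face the lumen become exposed. Their binding depends on the enzymes that build or cap the sugars as much as on the galectin genes, and these enzymes were read as separate lists.

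Total counts were 18319013 to 21960760 in the TEff samples and 21178756 to 23622621 in the TRM-like samples. TRM-like replicate 3 stood apart from TRM-like replicates 1 and 2. Those 2 had 35130 and 35559 genes detected, and the other 4 samples 24229 to 24908. By this measure replicates 1 and 2 were the unlike samples, and replicate 3 was near the TEff samples. Calls of the members and counts of the related lists are also given without TRM-like replicate 3, which keeps those 2 samples. The CD8 T cell markers, with Thy1, Cd3g, and Cd8a among the highest, summed to 3100 to 3221 CPM (counts scaled to a common library size) in TEff and 3685 to 4787 CPM in TRM-like samples, so the labelled cell type matched its markers. Of these 9 markers, Cd8a rose and Cd5 fell. In bulk RNA, more expressing cells and more RNA per cell cannot be told apart.

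The start site windows of the 2 members that differed between the groups are shown because TGF-β signals through SMAD proteins and because Lgals9 is known as an interferon-induced gene. Each window holds 250 bases before and 50 after the start of a RefSeq transcript (sequence table of build GRCm38.p6), and each matched 1 place in GRCm39, which gave the coordinates. The Lgals3 window lies at chr14:47611067-47611366 on the plus strand and the Lgals9 window at chr11:78875701-78876000 on the minus strand. The annotated Lgals3 gene begins upstream of its window, at 47605208, so the window holds the start of 1 transcript and not that of the whole gene. In Lgals3, the capitals mark CAGAC, the SMAD box, or GTCTG, its reverse complement. In Lgals9, they mark the interferon-stimulated response element, searched as GAAA, any 2 bases, and GAAA again, which matched in both places on the strand opposite to the gene.
Lgals3: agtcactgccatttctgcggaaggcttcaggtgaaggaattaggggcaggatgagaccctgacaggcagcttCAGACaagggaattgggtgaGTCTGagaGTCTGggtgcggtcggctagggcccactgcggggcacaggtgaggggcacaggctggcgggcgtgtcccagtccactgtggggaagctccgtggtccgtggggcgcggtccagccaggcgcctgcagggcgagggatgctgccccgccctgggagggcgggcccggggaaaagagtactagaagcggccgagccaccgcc
Lgals9: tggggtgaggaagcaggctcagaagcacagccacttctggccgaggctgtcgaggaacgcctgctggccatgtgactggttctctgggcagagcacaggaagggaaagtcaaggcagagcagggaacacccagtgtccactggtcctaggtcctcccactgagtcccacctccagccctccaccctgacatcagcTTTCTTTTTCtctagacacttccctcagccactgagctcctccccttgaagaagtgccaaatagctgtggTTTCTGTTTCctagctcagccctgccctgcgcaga

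CAGAC matched the Lgals3 window 3 times, at positions -178, -158, and -150 from the start. A short motif like this is common, and 49.6% of the 32851 windows of this length held it at least once, while 3.9% held it 3 times or more. The window of Itgb1, an integrin gene that fell in the TRM-like cells, also held CAGAC 3 times. The interferon-stimulated response element matched the Lgals9 window 2 times, at positions -55 and 15 from the start, and 3.44% of windows held it at least once. Both strands were searched, and the 6 motifs had been chosen after the members' values were seen. The others were TGANTCA (AP-1, in 7.81% of windows), TTCNNNGAA (STAT, 8.3%), TGTGGT (RUNX, 16.8%), and the NF-kB site (8.46%). The Lgals9 window held 1 RUNX match, the Lgals3 window 1 NF-kB match, the Lgals8 window 1 of each, and the Lgals4 window 1 CAGAC. The Lgals3bp window held none of the 6, and Lgals1 had no window in the table. A match describes letters only and is neither a bound site nor a cause.

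The comparison of the groups asked which galectin genes differed in RNA level after expansion with IL-15 and TGF-β. Lgals3 and Lgals9 rose in the TRM-like cells, Lgals3 by 4.67-fold and Lgals9 by 1.82-fold, and none of the 6 fell past the threshold. A call needed an adjusted p under 0.05 together with a log2 fold change beyond 0.58 in size. With this rule 3.01% of the 26154 genes tested were called, 1.52% higher and 1.48% lower in TRM-like cells. Every TRM-like sample lay above every TEff sample for 3 of the 6 members, Lgals3, Lgals3bp, and Lgals9, and below for 1, Lgals1. Over all genes tested, 10.6% lay wholly above and 9.71% wholly below. The members' median log2 fold change was 0.29 against 0.02 for all genes tested.

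**Figure D1:**
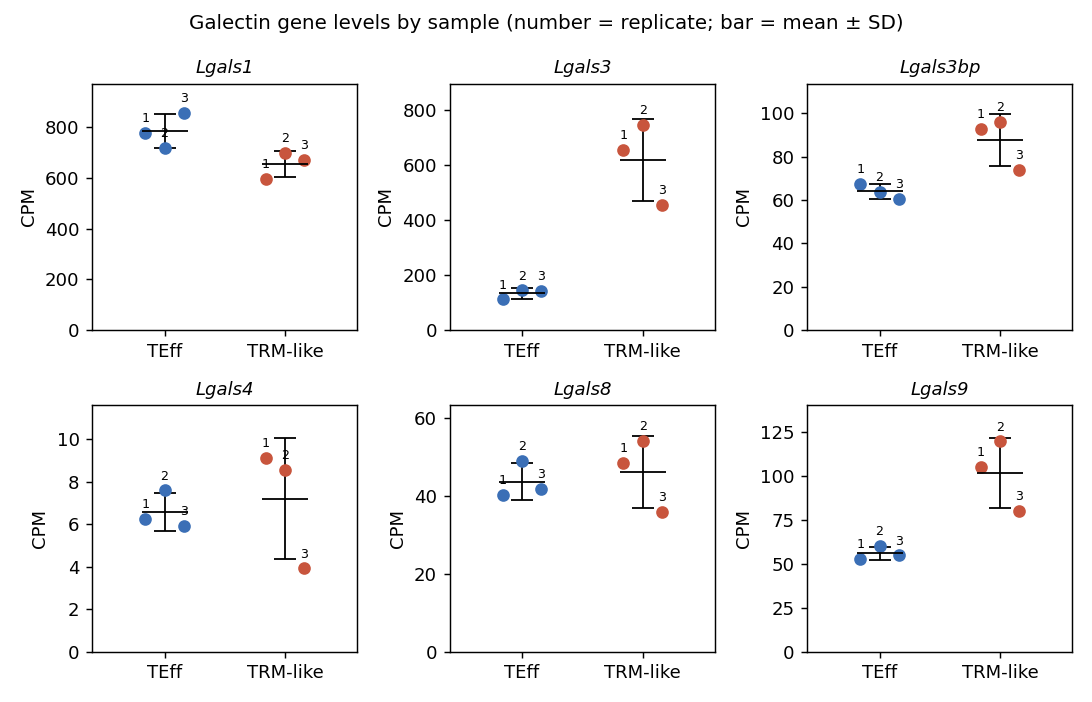
Level of each of the 6 galectin genes in CPM, in a panel per gene on linear axes. Points are the 3 TEff and 3 TRM-like samples, and bars give the group mean and SD. Lgals3 stands at 111 to 144 CPM in TEff and 456 to 747 CPM in TRM-like samples, while the Lgals4 and Lgals8 points overlap between the groups.

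Lgals3 encodes galectin-3, the galectin with a collagen-like tail that lets it form multimers and lattices on glycoproteins. The gene lies on chromosome 14 from 47605208 to 47623624 on the plus strand (GRCm39), and its main transcript has 6 exons. Its level was 111, 144, and 143 CPM in TEff replicates 1, 2, and 3, and 657, 747, and 456 CPM in TRM-like replicates 1, 2, and 3. The lowest TRM-like sample, replicate 3, was far above the highest TEff sample, and the groups did not overlap. The means were 133 ± 18.6 CPM and 620 ± 149 CPM (SD, n = 3 each). The log2 fold change was 2.22 (SE 0.21, 95% interval 1.74 to 2.70), higher in 3 of 3 TRM-like samples, and edgeR's quasi-likelihood test gave a Benjamini-Hochberg adjusted p of 0.000952. With any 1 sample left out it was 2.06 to 2.39 and past the threshold in 6 of 6 fits.

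Lgals9 encodes galectin-9, which carries a pair of sugar-binding domains in tandem. It lies on chromosome 11 from 78853800 to 78875798 on the minus strand, with 10 exons in its main transcript. TEff replicates 1 to 3 had 52.8, 60.1, and 54.8 CPM, and TRM-like replicates 1 to 3 had 105, 120, and 80.1 CPM. All TRM-like samples were above all TEff samples, with TRM-like replicate 3 the nearest to them. The group means were 55.9 ± 3.76 CPM and 102 ± 20.0 CPM (SD, n = 3 each). The log2 fold change was 0.86 (SE 0.17, 95% interval 0.49 to 1.24), higher in 3 of 3 samples, and edgeR's test gave an adjusted p of 0.0262. This call was less stable than that of Lgals3. The difference remained 0.73 to 1.00 with any 1 sample left out, but it passed the threshold in 1 of the 6 fits, the one without TRM-like replicate 3 (log2 fold change 1.00, adjusted p 3.25e-05 from edgeR), and in the other 5 the adjusted p was 0.0903 to 0.173.

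Lgals3bp encodes galectin-3 binding protein, a heavily glycosylated secreted protein that is no galectin itself. It lies on chromosome 11 from 118280716 to 118292918 on the minus strand. The TEff samples had 67.5, 63.9, and 60.6 CPM and the TRM-like samples 93.0, 96.0, and 74.0 CPM in replicate order. The groups did not overlap, and TRM-like replicate 3 again lay closest to TEff. The log2 fold change of 0.45 (SE 0.14, 95% interval 0.14 to 0.77) did not pass the threshold, with an adjusted p of 0.16 from edgeR although 3 of 3 TRM-like samples were higher. Without TRM-like replicate 3 the adjusted p from edgeR was 0.00212 at a log2 fold change of 0.55, higher in 2 of 2 samples, which is under the 0.58 that a call needs.

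Lgals1 encodes galectin-1, a dimer of single-domain subunits known for binding CD45, CD43, and CD7 on T cells. It lies on chromosome 15 from 78810875 to 78814670 on the plus strand and had the highest level per length of the 6 in every sample. It stood at 780, 721, and 856 CPM in TEff and at 597, 699, and 671 CPM in TRM-like cells. The TRM-like samples all lay below the TEff samples, but the gap between the nearest samples, TEff replicate 2 and TRM-like replicate 2, was small. The means of 786 ± 67.9 CPM and 656 ± 53.0 CPM (SD, n = 3 each) gave a log2 fold change of -0.26 (SE 0.14, 95% interval -0.58 to 0.06), lower in 3 of 3 samples, with an adjusted p of 0.467 from edgeR. In the annotation used for coordinates, which is later than the authors', its exons cover 1691 bases, against a deposited length of 800. Those exons share 518 bases with Gm30368, a long non-coding RNA gene on the opposite strand. The strand setting of the counting is not given in the sources used here, although the library kit keeps strand. Whether the shared bases lie within the 800 that were counted was not checked. It is therefore not known whether the Lgals1 counts hold reads from the opposite strand.

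Lgals8 and Lgals4 encode galectins with tandem sugar-binding domains. Galectin-8 marks damaged vesicles for autophagy, and galectin-4 is best known from the intestinal epithelium. Lgals8, on chromosome 13 from 12454282 to 12479840 on the minus strand, had 40.2, 49.1, and 41.9 CPM in TEff and 48.5, 54.1, and 35.9 CPM in TRM-like samples. TRM-like replicate 3 was the lowest of all 6 and TRM-like replicate 2 the highest, so the groups overlapped. The log2 fold change was 0.08 (SE 0.17, 95% interval -0.31 to 0.47), with 1 of 3 TRM-like samples above every TEff sample, and an adjusted p of 0.874 from edgeR. In the same later annotation, the Lgals8 exons share 155 bases with Heatr1, a ribosome biogenesis gene on the opposite strand. Heatr1 stood at 109 to 132 CPM in TEff. It had 72.8 and 68.5 CPM in TRM-like replicates 1 and 2, and 162 CPM in TRM-like replicate 3.

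Lgals4, on chromosome 7 from 28531804 to 28541281 on the plus strand, had the fewest counts of the 6. Its level was 6.26, 7.59, and 5.91 CPM in TEff and 9.12, 8.56, and 3.92 CPM in TRM-like samples. TRM-like replicates 1 and 2 were above all TEff samples and TRM-like replicate 3 below all of them. Its log2 fold change was 0.13 (SE 0.30, 95% interval -0.55 to 0.81), higher in 2 of 3 samples, with an adjusted p of 0.882 from edgeR. For both genes the interval was wide, and for Lgals4 it reached past the fold change that a call needs in the upward direction, so an unchanged level was not shown.

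**Figure D2:**
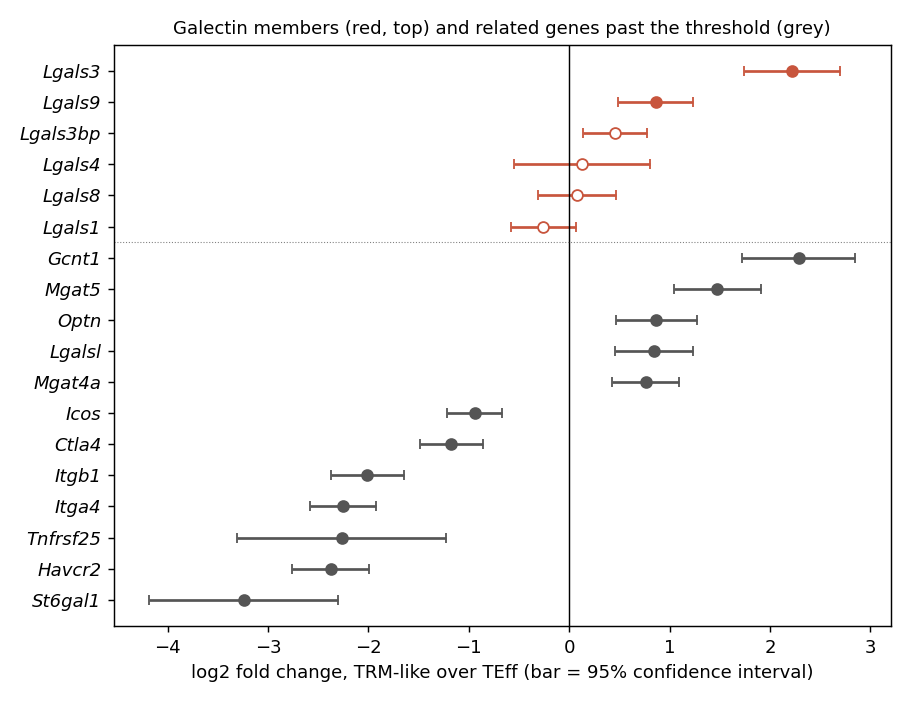
Log2 fold change of TRM-like over TEff cells for each galectin gene and for the related genes past the threshold, with points for the fitted value and bars for the 95% interval. The Lgals3 and Lgals9 intervals lie above 0, from 1.74 to 2.70 and from 0.49 to 1.24. The Lgals3bp interval, from 0.14 to 0.77, also lies above 0, although Lgals3bp was not called.

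**Figure D3:**
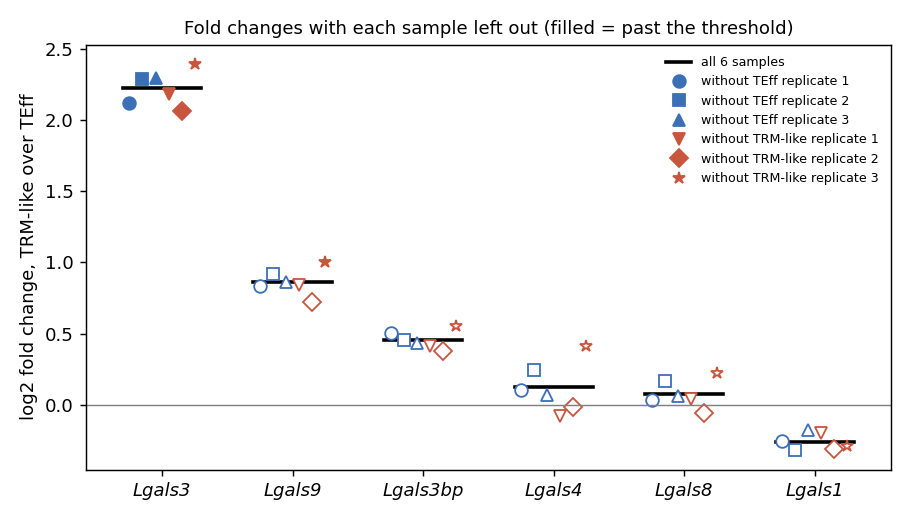
Log2 fold change of each galectin gene with all 6 samples and after leaving out each of them, filled where it passed the threshold. Lgals3 stays between 2.06 and 2.39 and past the threshold throughout, and Lgals9 between 0.73 and 1.00.

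The galectin genes differed widely in level once counts were divided by gene length. In RPKM, which is CPM per kilobase of gene length, Lgals1 averaged 982 ± 84.9 in TEff and 820 ± 66.2 in TRM-like cells, and Lgals3 83.6 ± 11.7 and 390.0 ± 93.8 (SD, n = 3 each). Lgals9 followed at 34.7 ± 2.33 and 63.0 ± 12.4 RPKM, Lgals3bp at 27.5 ± 1.47 and 37.6 ± 5.14, Lgals8 at 14.3 ± 1.53 and 15.1 ± 3.06, and Lgals4 at 4.76 ± 0.64 and 5.20 ± 2.06. This order held in all 6 samples, and no neighbours in it overlapped within either group. Lgals9 and Lgals3bp in TEff cells were the closest pair. By mean level per length, Lgals1 stood at the 99.6th percentile of the genes tested and Lgals3 at the 98.6th, while Lgals4 stood at the 66.4th.

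**Figure D4:**
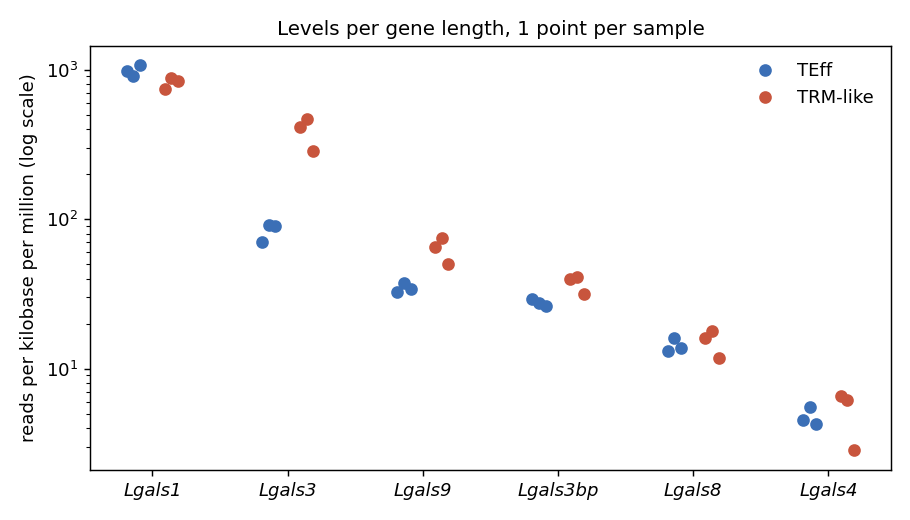
Level per length (RPKM, log scale) of the 6 galectin genes in each of the 3 TEff and 3 TRM-like samples. Every sample has the order Lgals1, Lgals3, Lgals9, Lgals3bp, Lgals8, Lgals4, and the gap between Lgals1 and Lgals3 is smaller in the TRM-like samples.

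The makeup of the galectin RNA pool differed between the groups. Of the summed RPKM of the 5 galectins, Lgals1 took 85.8% to 89.0% in TEff samples and 59.8%, 60.6%, and 70.5% in TRM-like replicates 1, 2, and 3. Lgals3 took 6.39% to 8.63% in TEff and 33.2%, 32.6%, and 24.1% in TRM-like cells. For both genes the groups' shares did not overlap, and TRM-like replicate 3 lay between TEff and the other TRM-like samples. The ratio of Lgals3 to Lgals1 per length was 0.0718, 0.101, and 0.0841 in TEff and 0.554, 0.537, and 0.342 in TRM-like samples. Lgals9 took 2.80% to 3.55% against 4.17% to 5.23%, while Lgals8 (1.13% to 1.53% against 0.987% to 1.27%) and Lgals4 (0.352% to 0.522% against 0.238% to 0.528%) overlapped. The summed RPKM itself overlapped as well, at 1050 to 1212 in TEff and 1190 to 1442 in TRM-like samples. These shares are arithmetic on the member levels above and were not tested apart from them. They also depend on the deposited gene lengths, 800 bases for Lgals1 and 1589 for Lgals3. In the later annotation used for coordinates, the exons of these genes cover 1691 and 2306 bases, so the shares and ratios would differ.

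**Figure D5:**
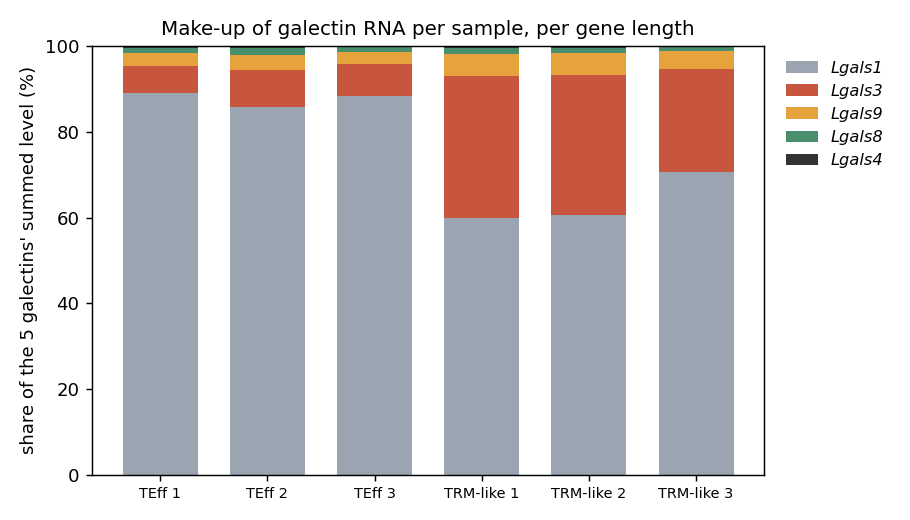
Share of the summed RPKM of Lgals1, Lgals3, Lgals4, Lgals8, and Lgals9 held by each gene, in percent, 1 stacked bar per sample. The Lgals3 share is 6.39% to 8.63% in the TEff bars and 24.1% to 33.2% in the TRM-like bars, and the Lgals4 share is too small to see.

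For each member, the genes with the most similar pattern were found among 14773 other genes that had 10 counts or more in each sample. Likeness was the root mean square difference of log2 CPM, after each gene was centred on its own mean over the 6 samples. Nearest to Lgals3 were Ly6g5b (difference 0.11), at 9.01, 11.4, and 10.4 CPM in TEff and 58.5, 67.9, and 35.6 CPM in TRM-like samples, and Pltp, the phospholipid transfer protein (0.15). Nearest to Lgals9 were Rara, the retinoic acid receptor alpha (0.05), at 31.2 to 37.6 CPM in TEff and 68.6, 72.5, and 47.7 CPM in TRM-like samples, and Nipal1 (0.06). All 4 share with their member a TRM-like replicate 3 that lies nearer to TEff than replicates 1 and 2 do. This follows from the choice, because the genes were picked for likeness over these same 6 samples. Lgals1 was closest to the ribosomal protein pseudogene Rps2-ps13 (0.02), whose counts may be shared with Rps2 itself, and to Rpl35 (0.03). Vamp4 and Tspyl2 were closest to Lgals3bp (0.04 each), Trim13 and C030029H02Rik to Lgals4 (0.05 and 0.06), and Mocs1 to Lgals8 (0.03).

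Of 8 other genes of the galectin family, 6 were in the count table and 4 had enough counts to test. Lgalsl, a galectin-like gene, rose from 17.0 ± 2.86 CPM in TEff to 30.5 ± 4.38 CPM in TRM-like cells (SD, n = 3 each). It had 18.02, 13.8, and 19.3 CPM in TEff and 27.3, 28.8, and 35.5 CPM in TRM-like samples, so that here TRM-like replicate 3 was the highest. The log2 fold change was 0.84 (SE 0.17), higher in 3 of 3 samples, with an adjusted p of 0.035 from edgeR, and with a sample left out it passed in 1 of 6 fits, the one without TRM-like replicate 3. Lgals7 averaged 0.545 and 0.530 CPM and Grifin, the lens galectin, 1.03 and 0.725 CPM, with neither called. Lgals2 and Lgalsl2 had at most 2 counts in any sample and were not tested.

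Genes of the surface glycoproteins that galectins bind were read as a list of counter-receptors. Of 20 tested, 6 fell and 0 rose, with a median log2 fold change of -0.48. In this list 12 lay wholly below TEff, and 3, Tnfrsf9, Lamp1, and Lamp2, wholly above. Over all genes tested, 1.48% were called lower and 1.52% higher, and 9.71% lay wholly below and 10.6% wholly above. These shares are also the background for the lists that follow. Havcr2, which encodes TIM-3, a receptor described for galectin-9, had 22.0, 19.6, and 23.9 CPM in TEff and 4.89, 3.98, and 3.74 CPM in TRM-like samples. All its TRM-like samples were well below TEff, and its log2 fold change was -2.38 (SE 0.17, adjusted p 0.000209 from edgeR, lower in 3 of 3 samples). Itgb1, the integrin beta-1 chain to which galectin-3 and galectin-8 bind, fell from 673 ± 74.0 to 167 ± 22.3 CPM, a log2 fold change of -2.01 (SE 0.16, adjusted p 0.000374 from edgeR, lower in 3 of 3 samples). Its partner Itga4 fell by 2.25 (SE 0.14), from 127 to 26.7 CPM. The inhibitory receptor gene Ctla4 and the costimulatory receptor gene Icos fell by 1.18 and 0.94 on the log2 scale, and these 5 genes passed with any sample left out. Tnfrsf25, a TNF receptor family gene, averaged 0.874 and 0.179 CPM, and its fall of 2.27 passed in 1 of 6 such fits, without TRM-like replicate 3.

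The counter-receptors best known for galectin-1 were not called. Ptprc (CD45) averaged 2083 ± 17.7 CPM in TEff and 1786 ± 58.6 CPM in TRM-like cells, a log2 fold change of -0.22 with an adjusted p of 0.53 from edgeR, and Spn (CD43) had -0.41 with an adjusted p of 0.197, each lower in 3 of 3 samples. Cd2, an adhesion receptor of T cells, averaged 275 ± 13.1 CPM in TEff and 176 ± 23.6 CPM in TRM-like cells and narrowly missed a call, its log2 fold change being -0.65 (SE 0.14, adjusted p 0.0504 from edgeR, lower in 3 of 3 samples). It passed in 6 of 9 other settings with all samples, where the adjusted p was 0.00355 to 0.061 over edgeR, DESeq2, and limma-voom, and in 0 of 6 edgeR fits with a sample left out. Cd7 had 18.5, 46.9, and 20.8 CPM in TEff and 294, 350, and 32.9 CPM in TRM-like samples. Replicates 1 and 2 were thus far above TEff while replicate 3 lay within its range, and the adjusted p was 0.078 from edgeR at a log2 fold change of 2.97, with 2 of 3 TRM-like samples above all TEff samples. Cd7 was chosen for mention after its values were seen. Without TRM-like replicate 3, 2 counter-receptors rose (Cd7 and Lag3) and 8 fell, the added ones being Tfrc and Slc3a2, and 14% of all genes tested were then called, 6.38% higher and 7.67% lower. In that fit, 2 of the 6 galectin members rose, Lgals3 and Lgals9, and 0 fell.

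Galectin ligands are built by branching and galactose-adding enzymes. Of 19 enzymes of N-glycan branching and N-acetyllactosamine tested, 2 rose and 0 fell, with a median log2 fold change of 0.17. Mgat5, which adds the branch on which galectin-3 ligands are extended, had 19.3, 21.9, and 17.2 CPM in TEff and 64.0, 57.9, and 40.4 CPM in TRM-like samples. The groups did not overlap, and its log2 fold change was 1.47 (SE 0.19, adjusted p 0.00427 from edgeR, higher in 3 of 3 samples). Mgat4a, another branching enzyme, rose from 51.1 ± 1.59 to 86.7 ± 14.9 CPM and passed in 2 of 6 fits with a sample left out. The highest of the list per length, B4galt1, which adds the galactose, had a log2 fold change of 0.40 with an adjusted p of 0.194 from edgeR, higher in 3 of 3 samples. Mgat1 and Mgat2, which act before the other branching enzymes, had log2 fold changes of 0.24 and 0.17, overlapped between the groups, and were not called. Without TRM-like replicate 3, 4 genes of the list rose (Mgat4a, Mgat5, B4galt5, and B3gnt8) and 1 fell (B4galt4). In that fit the log2 fold change of Mgat5 was 1.64, and 6.38% of all genes tested were called higher and 7.67% lower.

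Among 10 O-glycan enzymes, Gcnt1 alone was called and 0 fell, with a list median of -0.06. Gcnt1 makes the core 2 branch that allows N-acetyllactosamine on O-glycans. It stood at 7.45, 7.29, and 8.84 CPM in TEff and 46.9, 43.7, and 24.3 CPM in TRM-like samples, with no overlap and with TRM-like replicate 3 again the nearest to TEff. Its log2 fold change of 2.29 (SE 0.25, adjusted p 0.00183 from edgeR, higher in 3 of 3 samples) was close to that of Lgals3, although the difference between them was not tested. C1galt1, Galnt1, and Galnt2, which start and extend the same glycans, had log2 fold changes of -0.13, 0.08, and 0.06 and were not called. Without TRM-like replicate 3, Gcnt1 was still the 1 gene of the list called, at a log2 fold change of 2.52.

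St6gal1, which caps galactose with an α2,6-linked sialic acid and thereby blocks galectin-1 binding, had the largest difference of the related genes named here. It had 243, 208, and 255 CPM in TEff and 14.0, 16.0, and 44.6 CPM in TRM-like samples. The TRM-like samples were all far below TEff, replicate 3 the least so. The log2 fold change was -3.24 (SE 0.42, 95% interval -4.18 to -2.30, adjusted p 0.00408 from edgeR, lower in 3 of 3 samples), and it passed with any sample left out. It was 1 of 5 genes tested in a wider list of sialic acid genes. The other 4, Cmas, Slc35a1, Neu1, and Neu3, were not called. Neu1 and Neu3 encode sialidases, so the list median of -0.34 does not describe α2,6 capping. Without TRM-like replicate 3, St6gal1 was again the 1 gene called, at a log2 fold change of -3.98.

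Of 12 genes that act with galectins at damaged vesicles, 1 rose and 0 fell, with a median log2 fold change of 0.08. The 1 was Optn, an autophagy receptor, which went from 4.72 ± 0.63 to 8.60 ± 0.68 CPM and passed in 1 of 6 fits with a sample left out, without TRM-like replicate 3. The autophagy receptors Tax1bp1 and Sqstm1 and the ESCRT gene Chmp4b, which were the highest of this list per length, were not called. Without TRM-like replicate 3, 2 genes of the list rose (Optn and Calcoco1) and 1 fell (Trim16, at a log2 fold change of -1.11). Over the 6 related lists together, 12 of 70 genes tested were called, 17.1% against 3.01% of all genes tested, and 21 were called without TRM-like replicate 3, when 14% of all genes were. The lists were chosen with earlier results of these data known, and this count draws no test.

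Lgals3 and Lgals9 are also expressed by macrophages and dendritic cells, so the markers of other cells were read beside them. The 13 macrophage and monocyte markers summed to 4.02 to 5.08 CPM in TEff and to 5.19, 5.64, and 2.77 CPM in TRM-like replicates 1, 2, and 3. The highest count of any of them was 76, for Cd68, and C1qa was at 0 in every sample. Of those tested, 0 were called, and Lyz2, Mertk, C1qa, C1qb, C1qc, Mrc1, and Marco had too few counts to test. Mrc1 had 7, 7, and 0 counts and Fcgr1 9, 5, and 1 in TRM-like replicates 1, 2, and 3. Both were at 0 in every TEff sample. Itgam had 3, 11, and 12 counts in TEff and 3, 2, and 0 in TRM-like samples. Cd14 had 6, 8, and 5 counts in TEff and 4, 1, and 2 in TRM-like samples. Such counts are too few to give a direction for any of these genes. The 8 dendritic cell markers summed to 17.3 to 18.3 CPM in TEff and to 11.2, 8.83, and 3.55 CPM in TRM-like samples, with 1 called, Batf3, which fell. The 6 B cell markers summed to 7.22 to 8.10 CPM in TEff and 7.93 to 12.9 CPM in TRM-like samples, and the 8 stromal and epithelial markers to 48.7 to 65.3 CPM and 21.6 to 46.8 CPM, most of it Pecam1. From these other lists, Clec9a, Pax5, and Pdgfra were, like Mrc1, at 0 in every TEff sample and in TRM-like replicate 3. In TRM-like replicates 1 and 2 they had 8 and 3, 14 and 10, and 13 and 5 counts, in that order. Those 2 samples also had the most genes detected. NK cell markers, mostly Nkg7, summed to 193 to 252 CPM and 227 to 250.4 CPM, and CD4 T cell markers, mostly Zbtb7b, to 35.9 to 41.5 CPM and 18.4 to 25.99 CPM. In each of these lists 1 gene was called, Eomes and Zbtb7b, and both fell. Cd4 itself had at most 2 counts in any sample, Cd40lg at most 5, and Foxp3 at most 29. Neutrophil and erythroid markers were at or near 0, with S100a8, S100a9, and Hba-a1 at 0 throughout. The part of these levels in the galectin differences was not tested.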

How the data were processed

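RNA was sequenced from 3 TEff and 3 TRM-like samples, grouped by the sample titles. The authors trimmed reads (cutadapt 4.8 in the submitters' processing notes, which also name DESeq2 1.40.2), mapped and counted them with Rsubread on GENCODE genes of GRCm39. What the authors deposited are raw counts, without normalization, and a length in bases for each gene. Strand setting and handling of multiply mapping reads are not given in the sources used here. The authors removed a batch effect whose batch is not named, so no batch term was used. No deposited sample column was left unused.

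CPM values are counts scaled by edgeR's TMM library sizes, and RPKM values are CPM per kilobase of deposited length. Genes with a minimum of 1 count in 3 or more samples were tested in edgeR 4.0.16 (glmQLFit, glmQLFTest, R 4.3.3) with Benjamini-Hochberg adjustment over all 26154, and called at the study's thresholds, an adjusted p under 0.05 with a log2 fold change beyond 0.58 in size. The standard error is the log2 fold change divided by the square root of F. The fit was tested on simulated data. Likeness used log2 CPM with a prior count of 2. A gene with 3 counts would read 0.131 to 0.166 CPM, and all members were far above this in every sample. Pairs of samples within a group had a chi-square per gene of 3.73 to 112, where counting noise alone gives about 1, so all 6 were kept as separate samples.

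Symbols and coordinates came from GENCODE M39, later than the authors' release of the same build, with 56620 of 57126 genes matched. Promoter windows came from a RefSeq table. All 6 members are named. From each related list the called genes and the 3 with the highest level per length are named, up to 10, with the 2 genes most like each member, 1 of which is not reported here. The members, lists, and motifs were chosen with earlier results of these data known. The alternatives were DESeq2 1.42.0, limma-voom (limma 3.58.1), DESeq2's size factors, library totals, filterByExpr, a minimum of 10 counts in each sample, no filter, the replicate number as a block, and each sample left out. The block together with the minimum of 10 counts was added after seeing the data.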

Additional observations from a re-analysis of the deposited data

How the results depend on the processing

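Lgals3 and Lgals9 passed the threshold in all 9 other settings with 6 samples, at log2 fold changes of 2.20 to 2.24 and 0.85 to 0.88. The count of members past the threshold was 2 in each, and 1 to 2 with a sample left out. Lgals9 was then at 0.73 to 1.00, and lost its call in all but the fit without TRM-like replicate 3. With a sample left out, Lgals4 was at -0.08 to 0.41 (-0.076 without TRM-like replicate 1 and -0.019 without replicate 2) and Lgals8 at -0.06 to 0.22 (-0.055 without TRM-like replicate 2), and neither was called. Among related genes not called, Lgals7 was at -0.23 to 0.19 (0.169 and 0.191 where reversed), Galnt1 at -0.02 to 0.15 (-0.020 and -0.008), Galnt2 at -0.003 to 0.13, and Sqstm1 at -0.21 to 0.16 (0.040 and 0.157). Of all genes tested, 786 were called, against 1256 with DESeq2, 1756 with no filter, and 263 to 3579 with a sample left out, the highest count without TRM-like replicate 3. The related lists had 12 calls, and 8 to 21 with a sample left out, again the highest without TRM-like replicate 3. The replicate block called 2034 genes, and 903 with at least 10 counts in every sample, with the same 2 members. Deviations of same-numbered samples from their group means correlated at -0.363, 0.372, and 0.438 for numbers 1, 2, and 3, over 14822 genes. Such deviations depend on each other within a group of 3, so they cannot tell whether same-numbered samples were paired. With 3 samples a group, Lgals9 lay too near the threshold to be settled at this size, and Lgals4, at 3.92 to 9.12 CPM, was the member with the widest interval. The cause of these shifts was not tested.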
